A study of Bos taurus with 2 samples.

Results

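The carriers that bring sugars, lactate and amino acids into cells were read in testis of crossbred and Zebu bulls. Members were taken by name: every gene of the array whose symbol starts with SLC1A, SLC2A, SLC3A, SLC5A, SLC7A, SLC16A, SLC36A or SLC38A. This gave 69 genes, read by 137 probes, of 32429 gene names on the array. One of them, SLC7A6OS, lies on the opposite strand of SLC7A6 and is not a carrier, so it was counted among the 69 but placed in no role group. The crossbred group was Holstein Friesian crossbred bulls with 50 to 75% exotic inheritance, and the Zebu group was Tharparkar bulls. Bulls of both groups were 24 months old, and the tissue came from 1 surgically removed testis per bull. RNA from 3 bulls per group was pooled, and each pool was hybridised to 1 bovine Agilent array in 1 colour (Cy3), so no p-value can be given and the spread between bulls is not in these data. The 2 arrays lay on the same slide.

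Cells take up hexoses through facilitative carriers of the SLC2A family and, against a gradient, through sodium-coupled carriers of the SLC5A family. In the seminiferous tubule, Sertoli cells take up glucose and pass lactate to germ cells through monocarboxylate carriers of the SLC16A family, since germ cells beyond the blood-testis barrier depend on lactate as fuel. Amino acids enter through several systems. SLC1A carriers move glutamate or small neutral amino acids with sodium, SLC7A light chains exchange amino acids when paired with an SLC3A heavy chain, the cationic SLC7A carriers bring in arginine and lysine on their own, and SLC36A and SLC38A carriers are driven by protons or sodium.

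The probes of the 9 genes that differed most between the arrays are shown first, since every difference below is a difference in hybridisation to these stretches of transcript. Positions are those given in the array files on the bovine build HGSC Btau_3.1, letters are in lower case throughout because no motif is marked, and each sequence runs 5′ to 3′. Probes that bridge a splice junction are printed whole, with the span of the bridged exons as their position. Of probes that lie in 1 genomic block only the first 30 bases are printed, because the files do not say whether the block is coding or untranslated. The 5 genes that were higher in crossbred testis were read by these probes:
SLC5A1, chr17:73986967-73988801, plus strand, whole probe: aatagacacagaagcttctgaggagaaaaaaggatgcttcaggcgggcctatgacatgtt
SLC7A11, chr17:21052985-21062384, plus strand, whole probe: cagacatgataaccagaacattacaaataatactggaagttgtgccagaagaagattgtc
SLC7A13, chr14:76297615-76297674, minus strand, first 30 bases: gatccatagctatatctttgtttctgattt
SLC36A3, chr7:62188536-62188595, minus strand, first 30 bases: tatgagttgacccaacccatcaaccattct
SLC2A10, chr13:76148403-76148462, plus strand, first 30 bases: acctttggctatgaactggcagtcatatcg

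The 4 genes that were lower in crossbred testis were read by the next set, which holds 2 probes each for SLC5A3 and SLC3A1 because both were read at 2 places:
SLC7A3, chrX:49537945-49538004, plus strand, first 30 bases: acagagctctgtatttattgtggagtcaag
SLC5A3, unplaced scaffold, bases 42484 to 42543, plus strand, first 30 bases: gaacctccacaagttaaagtaatactcaat
SLC5A3, unplaced scaffold, bases 41342 to 41401, plus strand, first 30 bases: caatgtttatcatagtggtccccggaatga
SLC3A1, chr11:27834254-27834313, plus strand, first 30 bases: cgaatggtcattaattctgatatatttctg
SLC3A1, chr11:27833802-27833861, plus strand, first 30 bases: tattcccacaagagtgaggataaggttaag
SLC38A11, chr2:32376256-32392464, plus strand, whole probe: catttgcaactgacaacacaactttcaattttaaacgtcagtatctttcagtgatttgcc

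Values below are normalized signals on the log2 scale, 0 being the 75th percentile of all probes of that array, and every difference is crossbred minus Zebu. A gene was read from its brightest probe, and levels of different probes were not compared. A gene was called higher or lower where the difference was at least 1.5 in size and the brighter array was well above background by the scanner software's mark. A gene or probe is called detected in a pool where it carries that mark. The spread between spots of the same probe gave an SD of 0.34 for a difference, over 5962 probes with several spots, and it covers spotting and scanning only. Of the 69 genes 53 were detected in both pools, 2 in the crossbred alone, 7 in the Zebu alone and 7 in neither. Where a gene was detected in 1 pool alone, the fold is a lower bound, taken against the higher of the dim probe's own signal and the lowest signal well above background on that array, and is written "at least".

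Among the 62 detected transporter genes, SLC5A1, SLC7A11, SLC7A13, SLC36A3 and SLC2A10 were higher in crossbred testis, and SLC7A3, SLC5A3, SLC3A1 and SLC38A11 were lower. The 5 higher genes are 8.06% of the detected members, against 7.12% of 24751 detected genes of the whole array. The 4 lower genes are 6.45%, against 2.92%. Counted by probe, 9 of 113 detected transporter probes (7.96%) were higher, against 6.14% of all detected probes, and 7 (6.19%) were lower, against 2.99%. The share of higher calls was thus close to that of the whole array. The counts of lower calls rest on 4 genes and 7 probes. With the local background corrected by another method (normexp), 3 genes were higher (4.84% of the 62, against 4.16% of all detected genes) and 1 was lower (1.61%, against 0.683%). SLC7A11, SLC7A13, SLC36A3 and SLC7A3 stayed past the threshold, and SLC5A1, SLC2A10, SLC5A3, SLC3A1 and SLC38A11 did not. Over all genes, 70.9% of calls were higher in the crossbred, and with normexp 85.9% were. On the slide, the 18 spots nearest to each of the 9 probes had median differences from -0.39 (SLC5A3) to 0.24 (SLC7A3). Of these 18 spots, 7 were past 1.5 in size around SLC2A10, 5 around SLC5A3, 5 around SLC7A3, 3 around SLC36A3, 2 around SLC7A11, 1 each around SLC5A1, SLC3A1 and SLC38A11, and 0 around SLC7A13. The part of the neighbouring signal in these calls was not tested.

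**Figure D1:**
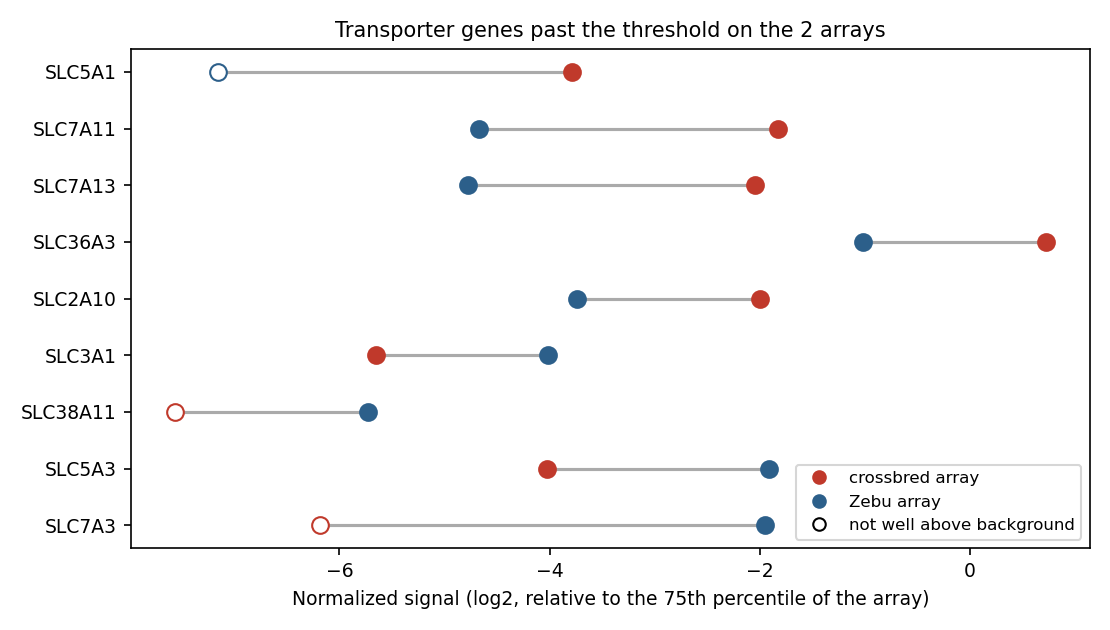
Normalized signal (log2, relative to the 75th percentile of the array) of the 9 transporter genes past a log2 difference of 1.5, on the crossbred array (red) and the Zebu array (blue). Each point is 1 probe on 1 array of pooled RNA, so there is no error bar, and open points were not well above background. SLC7A3 read -1.95 in the Zebu and -6.19 in the crossbred, and SLC36A3 read 0.73 in the crossbred and -1.02 in the Zebu.

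Transporter genes past the threshold were the minority. The median difference over the 53 genes detected in both pools was 0.13, with quartiles of -0.13 and 0.70, against a median of -0.04 with quartiles of -0.49 and 0.45 over 22842 genes of the array. Of the 53, 28 differed by under 0.5 and 33 (62.3%) had a difference above 0, against 47.7% of all genes. The monocarboxylate carriers, described below, were the role group with the most members above 0. The plot of differences by role group shows the 9 groups side by side.

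**Figure D2:**
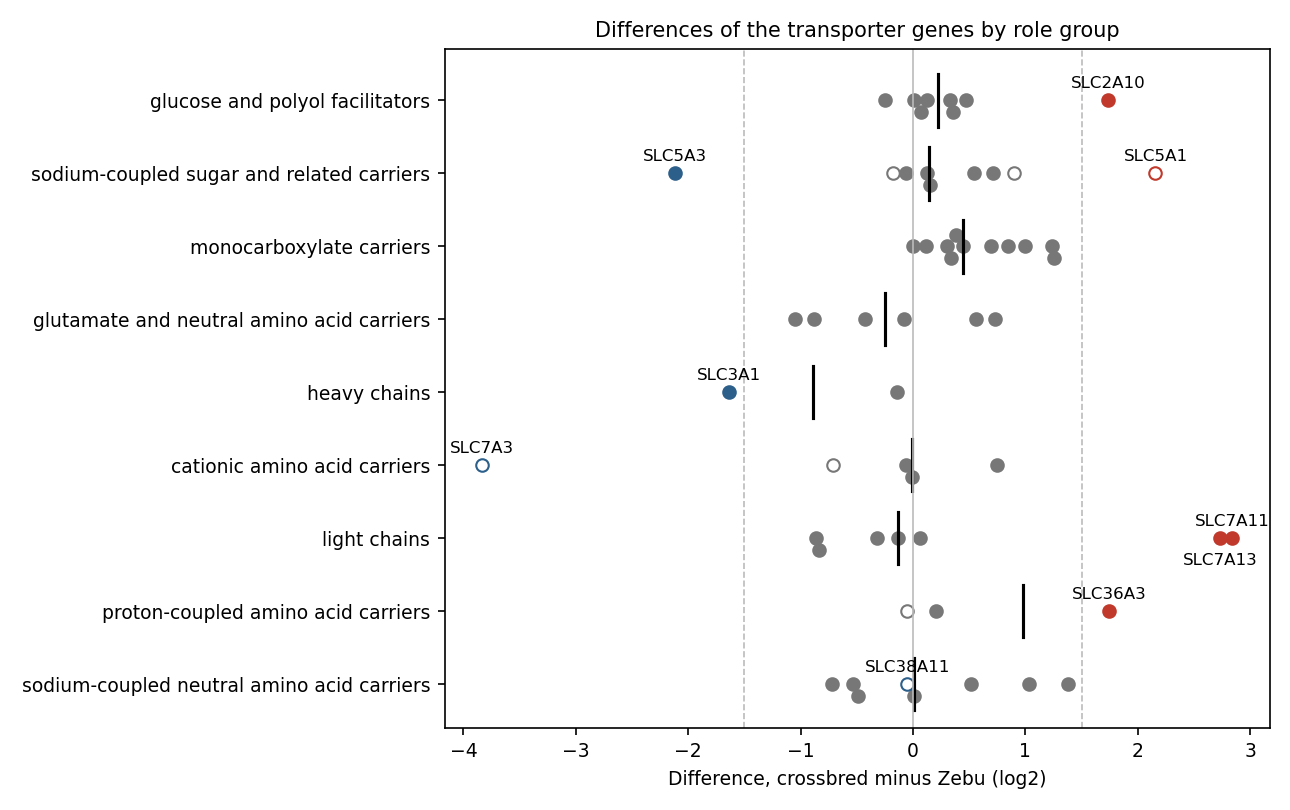
Difference of each detected transporter gene that has a value or a bound, crossbred minus Zebu (log2), by role group. SLC2A11 and SLC2A12, which gave no bound, and SLC7A6OS, which is in no role group, are not drawn. Calls use the measured difference, so SLC38A11 is coloured as lower at its bound of -0.05. Filled points were detected in both pools, open points show the bound for genes dim on 1 array, red and blue mark genes called higher or lower, black bars are medians of the filled points, and dashed lines mark a difference of 1.5. The bars lie between -0.89 (heavy chains, 2 genes) and 0.98 (proton-coupled carriers, 2 genes), and 10 of 11 monocarboxylate carriers lie above 0.

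The facilitative glucose carriers of germ cells and Sertoli cells differed by little at their brightest probes. SLC2A3 (GLUT3), the high-affinity carrier of neurons and germ cells, read 5.03 in the crossbred and 4.70 in the Zebu, a difference of 0.33. Its 6 probes gave differences from -0.20 to 1.16, and 2 of these probes had a spot in a dark patch of the crossbred array. That patch held 544 spots with a median difference of -1.37, and no transporter spot lay in a bright patch of the same array. The probe with 1 spot inside the patch and 1 outside gave -0.30 inside and 0.60 outside. SLC2A8 (GLUT8), an intracellular hexose carrier abundant in testis, read 4.21 and 3.86, a difference of 0.36, and its second probe gave 0.23. The differences of 0.33 and 0.36 are about the size of the spot SD of 0.34. That SD pools probes of every detected level, spots in the patches included, so it is not the spread of probes this bright.

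SLC2A1 (GLUT1), the carrier of most dividing cells and of Sertoli cells, was read by 3 probes that did not point one way. The brightest had signals of 587 in the crossbred and 733 in the Zebu, a normalized difference of -0.25, and the second gave 0.75. The remaining probe was detected in the Zebu alone and was at least 1.20-fold lower in the crossbred. SLC2A4 (GLUT4), the insulin-responsive carrier of muscle and fat, read -2.15 and -2.62, and its 3 detected probes lay between -0.50 and 0.47. For SLC2A5 (GLUT5), the fructose carrier that is abundant in sperm, both arrays read -1.40. SLC2A2 (GLUT2), the carrier of liver and pancreatic beta cells, was not detected in either pool. Of the rest of the family, SLC2A6 and SLC2A13 differed by 0.07 and 0.12, and SLC2A11 and SLC2A12 were detected in the Zebu alone, too dimly to give a bound above 1.

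SLC2A10 (GLUT10), whose loss causes arterial tortuosity in people, was the 1 gene of its group past the threshold. Its signal was 294 in the crossbred and 92.6 in the Zebu, or -2.00 and -3.74 after normalization, a 3.33-fold difference. Its 2 other probes were not detected in either pool, so the call rests on 1 probe. With normexp the difference was 1.21.

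Of the sodium-coupled carriers, the intestinal and renal glucose carrier SLC5A1 (SGLT1) was detected in crossbred testis alone and the inositol carrier SLC5A3 was lower there. The SLC5A1 probe that bridges a splice junction gave a signal of 85.4 in the crossbred and of 8.65 in the Zebu, where it was not detected. After normalization this was -3.78 against -7.16, which is at least 4.46-fold higher. The other SLC5A1 probe, in a more 5′ part of the transcript, was not detected in either pool. With normexp the first probe fell short of the threshold. SLC5A2 (SGLT2), the glucose carrier of the kidney tubule, read -0.01 and -0.16, a difference of 0.15.

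SLC5A3 (SMIT1) carries myo-inositol, an osmolyte that is concentrated in seminiferous tubule fluid. Its signal was 72.2 in the crossbred and 328 in the Zebu, or -4.02 and -1.91 after normalization, which is 4.33-fold lower in the crossbred. The second probe, upstream in the same transcript, was detected in the Zebu alone and was at least 1.18-fold lower in the crossbred. With normexp the difference of the brighter probe was -1.41, short of the threshold.

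The remaining sodium-coupled carriers that were detected in both pools differed by under 1. SLC5A12, a low-affinity sodium-coupled lactate carrier, read 4.19 and 4.25 from its brighter probe alone. Its other probe was near background, with spot signals of 21.2 and 17.2 in the crossbred and 24.7 and 22.1 in the Zebu. That probe was detected in the Zebu alone, so the size of its measured difference of -0.23 is not known. The level of SLC5A12 thus rests on 1 probe. SLC5A8, the high-affinity counterpart, was detected in the crossbred alone, where it was at least 1.86-fold higher. SLC5A5 (NIS), the iodide carrier of the thyroid, was read by 2 detected probes that disagreed in size: 0.13 for the brighter, and at least 1.65-fold higher for the probe detected in the crossbred alone. SLC5A6, the biotin and pantothenate carrier, and SLC5A9 gave 0.54 and 0.71, and SLC5A11 was detected in the Zebu alone, at least 1.13-fold lower in the crossbred. SLC5A7 and SLC5A10 were not detected in either pool.

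The monocarboxylate carriers were the group with the most genes on the crossbred side, and none of them passed the threshold. Of 12 genes 11 were detected in both pools, their median difference was 0.44, 10 of the 11 were above 0, and the range was -0.00 to 1.25. Other ways of scaling the arrays left the median between 0.41 and 0.44, and normexp gave 0.31. SLC16A1 (MCT1), the widely expressed lactate and pyruvate carrier, read 0.36 and 0.02, a difference of 0.34, but 1 of its other probes gave -0.62 and the mean over its 3 probes was 0.01. SLC16A7 (MCT2), the high-affinity carrier of sperm and neurons, read -2.39 and -2.84, and its 3 probes agreed in sign, from 0.38 to 0.61. SLC16A3 (MCT4), the lactate exporter of glycolytic cells, differed by 0.12.

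SLC16A8 (MCT3), a lactate carrier best known from the retinal pigment epithelium, had the highest difference of the group. Its 2 probes had signals of 3030 and 2605 in the crossbred against 1333 and 1092 in the Zebu, and gave differences of 1.25 and 1.32. Both probes lie in the same transcript, and neither reached 1.5. SLC16A13 was read by 3 probes that differed in size: 0.14, 0.99 for the probe that stands for the gene, and a probe detected in the crossbred alone that was at least 2.86-fold higher. SLC16A10, a carrier of aromatic amino acids that was chosen for mention after its values were seen, gave 1.24 from its brighter probe and 0.06 from the other. SLC16A5, SLC16A6, SLC16A11 and SLC16A14 lay between -0.00 and 0.70, and SLC16A4 was not detected in either pool.

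The exchangers of cystine and acidic amino acids showed the largest differences on the crossbred side among genes detected in both pools. SLC7A11 (xCT) exchanges extracellular cystine for glutamate and so feeds glutathione synthesis. Its single probe, which bridges a splice junction, gave a signal of 331 in the crossbred and 48.5 in the Zebu. Normalized, this was -1.83 and -4.67, a 7.16-fold difference. SLC7A13 (AGT1), a kidney light chain for aspartate, glutamate and cystine, had a signal of 285 against 44.9, or -2.05 against -4.78, a 6.65-fold difference, also from 1 probe. Both differences kept their side of the threshold with normexp, at 1.74 for SLC7A11 and 1.63 for SLC7A13.

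SLC3A1 (rBAT), the heavy chain with which SLC7A13 and SLC7A9 pair, was lower in the crossbred. Its signal was 23.4 in the crossbred and 76.2 in the Zebu, or -5.65 and -4.02 after normalization, a difference of -1.63. The second probe was detected in the Zebu alone and was at least 1.74-fold lower in the crossbred. The crossbred signal is near the lowest value marked well above background on that array, -5.78, and with normexp the difference was -0.64. SLC7A9, the cystine and basic amino acid light chain of kidney and gut, was not detected in either pool. SLC3A2 (4F2hc, CD98), the widely expressed heavy chain with which SLC7A5, SLC7A6, SLC7A7 and SLC7A11 pair, read 2.24 and 2.38, a difference of -0.14, and its second probe gave -0.51.

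The light chains other than SLC7A11 and SLC7A13 differed by under 1. SLC7A5 (LAT1), the carrier of leucine and other large neutral amino acids, read 4.66 and 4.98, a difference of -0.32, with its 3 probes between -0.33 and 0.14. SLC7A6 (y+LAT2) gave -0.13. SLC7A7 (y+LAT1), which exports basic amino acids and is mutated in lysinuric protein intolerance, gave -0.84 from its brighter probe and 0.38 from the other. SLC7A8 (LAT2) and SLC7A10 (Asc-1) gave 0.06 and -0.86, and the opposite-strand gene SLC7A6OS gave -0.08. The median over the 7 light chains detected in both pools was -0.13.

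SLC7A3, a cationic amino acid carrier (CAT3) encoded on the X chromosome, had the largest measured difference of all 69 genes. Its signal was 16.1 in the crossbred, where it was not detected, and 320.1 in the Zebu. Normalized, this was -6.19 against -1.95, at least 14.2-fold lower in the crossbred, and with normexp the difference was still -1.85. The gene has 1 probe and 1 spot on each array. The other arginine and lysine carriers were SLC7A1 (CAT1), the widely expressed form, which was detected in the Zebu alone and at least 1.64-fold lower in the crossbred, and SLC7A2 (CAT2), which read -0.56 and -1.31, a difference of 0.75. SLC7A4, an orphan relative, was read by probes that disagreed: -0.01 from the brighter, and at least 2.17-fold lower from a probe detected in the Zebu alone. SLC7A14, a lysosomal relative, gave -0.06 from a spot in the dark patch, where the 18 nearest spots had a median of -1.51, and the part of the patch in its value was not tested.

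Glutamate and neutral amino acid carriers of the SLC1A family were split, with 2 of 6 genes above 0 and a median of -0.25 that became 0.14 when all detected probes of a gene were averaged. SLC1A3 (EAAT1, GLAST), a sodium-coupled glutamate carrier, read -1.50 and -0.45, a difference of -1.05, and its second probe gave -1.37. The 2 spots of its brighter probe differed by an SD of 0.04 on each array. SLC1A1 (EAAT3), the neuronal and renal glutamate carrier, had 2 probes of opposite direction: the brighter gave -0.88, and the other was detected in the crossbred alone and at least 1.83-fold higher there. SLC1A4 (ASCT1), a carrier of alanine, serine and cysteine, was higher by all 3 probes, at 0.56, 1.03 and 1.09. SLC1A5 (ASCT2), the glutamine carrier of proliferating cells, read 0.40 and 0.83, a difference of -0.43. SLC1A6 and SLC1A7, glutamate carriers of cerebellum and retina, gave 0.73 and -0.08. SLC1A2 and SLC36A1 were on the list of carriers to be named, and no probe of the array carries either name.

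SLC36A3 (PAT3), a member of the proton-coupled family known from testis, was higher in the crossbred and was detected in both pools. It had a signal of 1945 in the crossbred and 608 in the Zebu, or 0.73 and -1.02, a 3.35-fold difference from 1 probe. SLC36A4 read -2.12 and -2.33, a difference of 0.21. SLC36A2, the imino acid carrier of the kidney, was dim on both arrays, at -5.91 and -5.72, and detected in the Zebu alone.

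Among the sodium-coupled neutral amino acid carriers, SLC38A2 and SLC38A9 were read by several probes that agreed in direction and pointed opposite ways. SLC38A2 (SNAT2), the glutamine and alanine carrier that cells induce when amino acids are short, was lower in the crossbred by all 5 of its probes, from -1.23 to -0.56. Its brightest probe read 1.40 and 2.12, a difference of -0.72. SLC38A9, a lysosomal arginine sensor that signals to the kinase mTORC1, was higher by all 3 of its probes, at 1.28, 1.03 and 2.31 in order from the 5′ end of the transcript. The gene counts as not past the threshold because its brightest probe, with signals of 2644 and 1354, gave 1.03, and the mean of the 3 probes was 1.54. These 3 probes are shown because they read the same transcript at 3 places and differ in size:
SLC38A9, chr20:25082327-25082386, plus strand, first 30 bases: agagtgctacgtatatagcccactgggttc
SLC38A9, chr20:25135719-25136962, plus strand, whole probe: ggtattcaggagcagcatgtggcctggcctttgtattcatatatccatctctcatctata
SLC38A9, chr20:25143546-25143605, plus strand, first 30 bases: gcaacactagggtaaggcaacatttattta

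SLC38A11, an orphan of the same family, was read near background, at -7.57 in the crossbred and -5.73 in the Zebu. Its signals were 6.20 and 23.3, only the second was well above background, and the bound was at least 1.04-fold lower, so the size of the difference is hardly known. SLC38A4 (SNAT4), known from liver and placenta and mentioned because its value lies just under the threshold, read -3.09 and -4.46, a difference of 1.37. SLC38A3 (SNAT3), a glutamine carrier of liver and kidney, gave -0.49. SLC38A6, SLC38A7 and SLC38A10 gave 0.52, -0.53 and 0.01. The 4 probes of SLC38A10 had measured differences from -0.94 to 1.21. The probe at -0.94 was detected in the Zebu alone, so its size is not known. SLC38A1 and SLC38A5 were not detected in either pool.

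Just inside the threshold lay SLC3A1 at -1.63, SLC2A10 at 1.73 and SLC36A3 at 1.75, and just outside it lay SLC38A4 at 1.37, SLC16A8 at 1.25 and SLC16A10 at 1.24. With a threshold of 1, 9 genes were higher (14.5% of the 62, against 12.8% of all detected genes) and 7 were lower (11.3%, against 8.87%). With a threshold of 2, 3 were higher (4.84%, against 3.49%) and 2 were lower (3.23%, against 1.2%). At a linear fold of 1.5, 16 were higher (25.8%, against 21.4%) and 12 were lower (19.4%, against 22.2%). Across the 31 transporter genes with at least 2 detected probes, 22 (71.0%) had the same sign in every probe, against 66.5% of 8959 such genes on the array, and the median range of the difference within a gene was 0.48, against 0.44. The plot of differences probe by probe shows 18 of these genes.

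**Figure D3:**
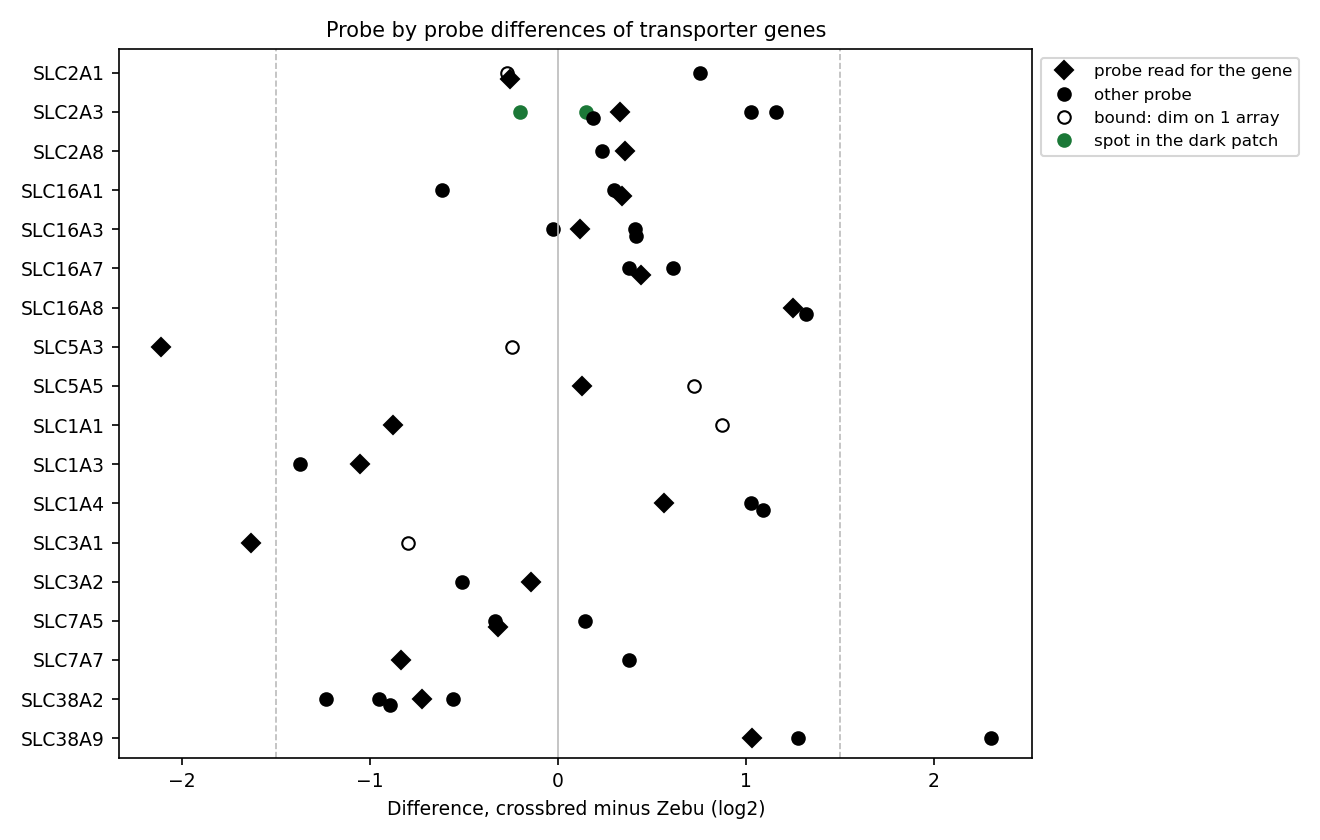
Difference of each detected probe, crossbred minus Zebu (log2), for 18 transporter genes with several detected probes. Diamonds are the brightest probe, which stands for the gene, open points are bounds where 1 array was not well above background, green points have a spot in the dark patch, and dashed lines mark 1.5. The 5 probes of SLC38A2 lie between -1.23 and -0.56 and the 3 of SLC38A9 between 1.03 and 2.31, whereas the probes of SLC2A1 and SLC1A1 lie on both sides of 0.

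Genes that work with the transporters were read from lists of their partners. Of 13 genes that act beside lactate carriers, 1 was higher and none was lower, and the median was -0.01. Over all detected genes, 7.12% were higher and 2.92% were lower. BSG (basigin), which escorts SLC16A1 and SLC16A3 to the membrane, read 2.51 and 2.52, and the related EMB (embigin) gave -0.96. Lactate dehydrogenases gave 0.49 for LDHA, 0.50 for the germ-cell form LDHC and -0.62 for LDHB. PDK1, a kinase that holds pyruvate out of mitochondrial oxidation, was 1.94 higher by its brightest probe, while its 2 other probes gave -0.11 and -0.29. PDK4 gave -0.74 from its brightest probe. Its other detected probes were also lower, from -1.35 to -1.12, with probes detected in the Zebu alone taken at their bounds. The probe with the bound of -1.12 was the 1 past the threshold.

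Partners of the amino acid carriers held further differences. GLUL (glutamine synthetase), which makes glutamine from glutamate, was higher by 2.38, 2.46 and 2.09 in 3 of its 5 probes, and the other 2 gave 0.05 and -0.28. GLS2, which splits glutamine, gave -1.44, and the median of the 6 genes of glutamine and glutamate use was -0.20. RPTOR, the scaffold of mTORC1 to which SLC38A9 signals, read -0.38 and -3.19, a difference of 2.81 from its 1 detected probe. The authors had listed it as upregulated from these same arrays, so its value is no independent reading. RPTOR was the 1 gene of 11 in the lysosomal sensing list past the threshold, where 7.12% of all detected genes were higher. Read from their brightest probes, the rest of that list had a range of -1.06 to 0.75, and its median was -0.14. A dimmer probe of LAMTOR2 was detected in the crossbred alone and past the threshold, with a bound of 1.40 on the log2 difference, against -0.07 for the brightest. Of the amino acid response genes, ASNS (asparagine synthetase) was 1.39 higher and the transcription factor ATF4 gave -0.70, and the median of the 6 genes was -0.33. The probes of some of these genes disagreed: SESN2 gave -0.41 from its brightest probe and 2.57 from its other, ATF4 gave 0.42 from 1 of its 3 probes, and DDIT3 gave -0.06 and 0.28. The 3 detected genes of cystine and glutathione use gave -0.51 for GCLM, -0.51 for GSS and 0.53 for CHAC1, none past the threshold, with a median of -0.51. Of 8 glucose handling genes the median was -0.27. INSR, the insulin receptor, was lower at -1.65 by its brightest probe, and its 2 other detected probes were seen in the Zebu alone. HK1 (hexokinase) gave 0.59, and HK2 has no probe of that name.

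Markers of the testis cell types also differed between the pools. All 8 spermatid markers had a difference above 0, with a median of 1.73 and 6 past the threshold. Those 6 (TNP2, ODF1, AKAP4, ACRV1, SPEM1 and CABS1) had been reported as upregulated by the authors from these same arrays. Their values are therefore no independent reading. PRM1 gave 0.36 and TNP1 0.49 from their brightest probes, and the other TNP1 probes gave 1.47 and 1.55. The log2 of the summed normalized levels of the 8 markers was 8.78 in the crossbred and 7.93 in the Zebu. Such a sum is weighted to its brightest probes, those of PRM1 and TNP1 here and of INHA and CLDN11 among the Sertoli cell markers. The 5 spermatocyte markers had a median of 0.20. Spermatogonial markers had a median of -0.80 (1 of 6 above 0), Sertoli cell markers -0.90 (1 of 7 above 0, summed level 5.90 against 6.75), Leydig cell markers -0.79 (none of 6 above 0, 2 past the threshold) and peritubular markers -0.77 (none of 5 above 0). Endothelial markers had a median of 0.08. The 4 macrophage markers detected in both pools had a median of 0.38. Of these, AIF1, read by 1 probe, was past the threshold at 1.95, CD14 gave 0.56, CD68 0.20 and CSF1R -0.19. The other CD14 probes gave 0.86 and -0.25, so the sign for CD14 depends on the probe. CD163 was detected in the Zebu alone. Of the red cell markers the alpha globin gene HBA was lower at -2.15, and HBB, ALAS2 and SLC4A1 were not detected in either pool. Of the kidney and gut markers, set beside SLC5A1, SLC7A13 and SLC3A1, UMOD gave 0.12, VIL1 was detected in the Zebu alone, and LCT, FABP2 and CDH16 were not detected in either pool. In pooled tissue, fewer cells of a type and less RNA per cell cannot be told apart, and the part of these marker differences in the transporter results was not tested.

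**Figure D4:**
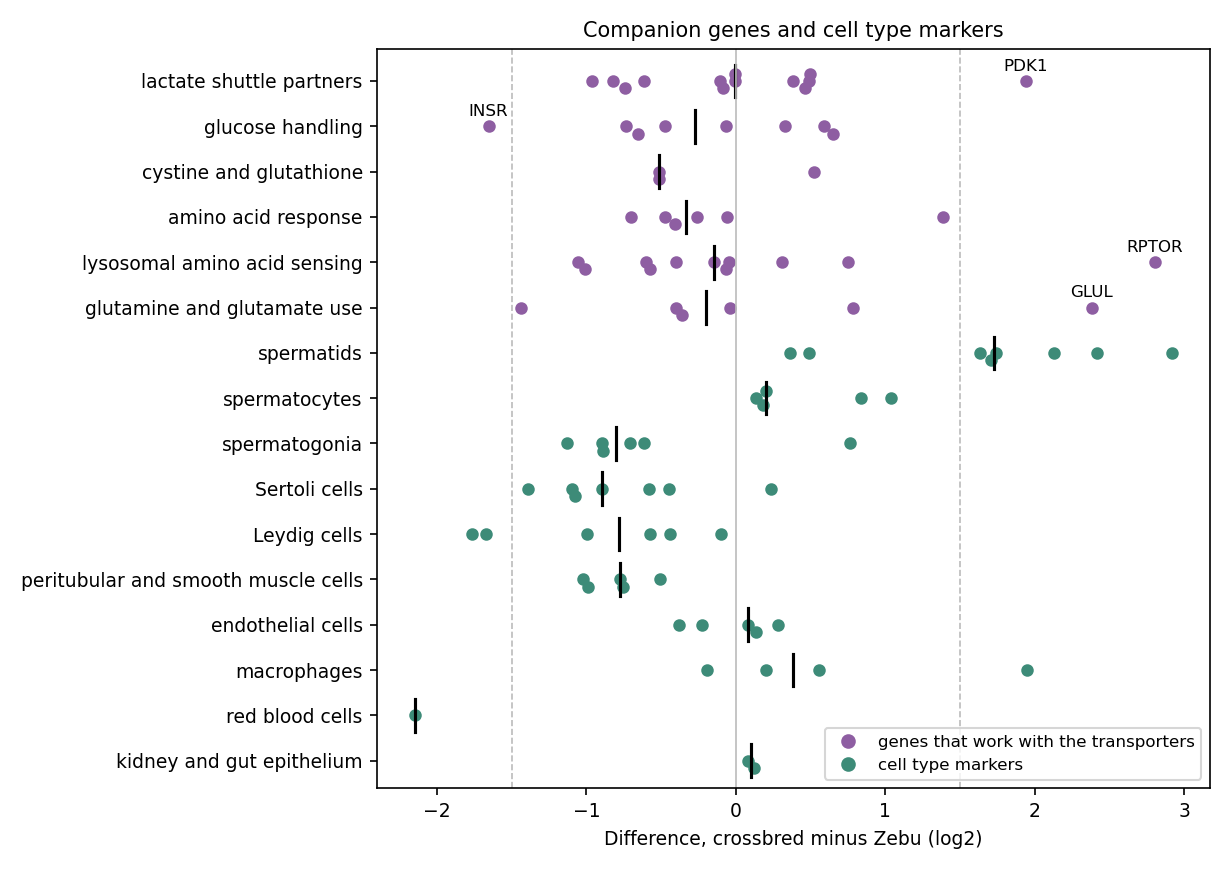
Difference, crossbred minus Zebu (log2), of genes that work with the transporters (purple) and of cell type markers (green), each point being 1 gene detected in both pools and each black bar the median of its list. Dashed lines mark a difference of 1.5. The spermatid markers have a median of 1.73 and all lie above 0, whereas the Sertoli, Leydig, peritubular and spermatogonial markers have medians between -0.90 and -0.77. The spermatid and Leydig markers past the threshold had been reported by the authors from the same arrays.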

How the data were processed

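The authors extracted testis RNA, labelled cRNA from an oligo-dT primer with Cy3, hybridised 1 array per pool and read it with Agilent Feature Extraction. They deposited for each spot a processed signal, an intensity with the background subtracted, and the mean and local background intensities. They also deposited log2 values shifted to the 75th percentile of each array. Here processed signals were taken to log2, spots of the same probe were averaged, 13 outlier spots were left out, and the 75th percentile over non-control probes was subtracted. The 75th percentile signal was 1176 in the crossbred and 1233 in the Zebu, and 72.0% and 74.3% of spots were well above background. Genes described in full, with values under each alternative, were those past the threshold, those in a patch, those with disagreeing probes and a list with textbook roles. Most other members are given with a difference only, and SLC16A10 and SLC38A4 were picked after their values were seen. Values of 1 member and 1 marker are not reported here. Members and lists were chosen with earlier results of these data known. Gene names are those of the array, and 68 of 69 are symbols in a RefSeq table of ARS-UCD2.0, SLC7A13 being the exception. With 1 array per group no test was made. Alternatives covered background correction (limma 3.58.1), scaling, the deposited values, the choice of probe, the patches, thresholds and the dim-probe filter. Scripts (Python 3.11.15, R 4.3.3) were tested on simulated data.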

Additional observations from a re-analysis of the deposited data

How the results depend on the processing

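The counts of transporter genes past the threshold (5 higher, 4 lower) were the same 9 genes under the median shift, the 75th percentile of detected probes, quantile normalization, the deposited log2 values and without the patches. Normexp gave 3 higher and 1 lower, and a median of -0.37 for the heavy chains. A log2 difference of 1 gave 9 higher and 7 lower, a difference of 2 gave 3 and 2, and a linear fold of 1.5 gave 16 and 12, with the shares over all genes given beside these counts above. Asking for detection on both arrays left 4 higher and 2 lower. Averaging all detected probes added SLC38A9 and moved the SLC1A median from -0.25 to 0.14. Without the patches the cationic carriers' median moved from -0.01 to 0.36, since SLC7A14 was left out. With the dim side at its bound, the proton-coupled carriers' median was 0.21, over 3 genes in place of 2. The causes of the other moves were not tested. Of 276 values of 40 named genes under the alternatives, 259 moved by less than the spot SD of 0.34 and 17 by more. All 17 arose under normexp or from averaging the detected probes. Under normexp, all of the 9 called genes except SLC36A3 moved by more than that SD. Precision is limited by 1 array per group, and signals near background give bounds only. No paired analysis was possible because each group has 1 array of pooled RNA.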
